A study of Mus musculus with 111 samples.

Results

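Interferon-stimulated genes are switched on in a cell that meets an interferon, and 37 of them are described here. They were picked by name for their known roles, with earlier results of these data already known. Of these, 31 were measured by a probeset annotated to that gene alone, out of 15707 genes measured in all. The antiviral list named 26 genes best known for their induction by type I interferon, of which 22 were measured. The interferon-gamma list named 11 genes best known for induction by interferon-gamma (GTPases, antigen processing genes and the transcription factor Irf1), of which 9 were measured. Ifit3, Isg15, Oas1a, Ifi44, Gbp5 and Ifi47 had no probeset in the annotation used and were not analysed here.

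The levels came from whole lungs of male C57BL6/J mice, given as 7 to 9 weeks old at purchase, with 1 mouse per array. Bleomycin mice had received 1 intratracheal spray of bleomycin (2 U/kg in 50 μl of saline), and saline mice had received 50 μl of saline. Lungs were taken 1, 2, 7, 14, 21, 28 or 35 days later, with 8 mice in each of the 14 groups apart from the 7 saline mice of day 14, where the authors had removed an array. All mice shared 1 strain, sex and age range at purchase, and those of later days were older when their lungs were taken. The whole lung was homogenized, so a level averages over all of its cells.

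Type I interferons and interferon-gamma bind different receptors, whose Janus kinases phosphorylate STAT proteins. The interferon-stimulated response element (ISRE), bound by a complex that holds Stat2 and Irf9, is the main control element of antiviral genes, while the gamma-activated sequence (GAS) is the element best known for the response to interferon-gamma. Many genes respond to both kinds of interferon, so the 2 lists are a convention rather than a separation by receptor. In lung this response is best known from infection with influenza and other respiratory viruses.

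Promoter sequence (RefSeq, GRCm38.p6) was given for 14 of the 22 measured antiviral genes and 8 of the 9 interferon-gamma genes, and the 250 bases before each gene start were searched on both strands. The ISRE was searched as GAAA, any 2 bases and GAAA, which reads as TTTC, any 2 bases and TTTC on the other strand. The GAS was searched as TTC, any 3 bases and GAA, which reads the same on both strands. An ISRE match lay in 6 of 14 antiviral promoters (42.9%) and 4 of 8 interferon-gamma promoters (50%), against 3.46% of all 27025 promoters. A GAS match lay in 2 of 14 antiviral promoters (14.3%) and 3 of 8 interferon-gamma promoters (37.5%), against 8.13% of all promoters. The promoters of Oas2, Mx1, Mx2, Usp18, Dhx58, Zbp1, Rtp4, Parp14 and Iigp1 were not given.

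The windows below are those of members with mouse levels given below and a match in their promoter, to show the matched letters in genes of both lists. The promoter of Xaf1, whose levels are also given, held neither an ISRE nor a GAS match and is not shown. Each is 60 bases long, written 5′ to 3′ on the strand of the gene, with the ISRE or GAS matches in capitals. The windows of Ifit1, Rsad2 and Oas3 hold ISRE matches of antiviral genes.
Ifit1: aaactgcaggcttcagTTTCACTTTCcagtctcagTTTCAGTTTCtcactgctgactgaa
Rsad2: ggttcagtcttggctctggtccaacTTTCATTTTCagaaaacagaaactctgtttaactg
Oas3: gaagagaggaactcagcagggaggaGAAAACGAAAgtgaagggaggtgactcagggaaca
Gbp2: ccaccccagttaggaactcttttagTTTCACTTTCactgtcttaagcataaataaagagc
Gbp3: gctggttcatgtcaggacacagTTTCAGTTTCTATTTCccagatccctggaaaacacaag
Irgm1: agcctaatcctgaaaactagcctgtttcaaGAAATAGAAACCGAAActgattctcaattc
Igtp: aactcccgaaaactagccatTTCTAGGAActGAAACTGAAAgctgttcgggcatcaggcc
Irf1: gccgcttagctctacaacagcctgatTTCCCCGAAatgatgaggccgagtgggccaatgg

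The Ifit1 window (chr19:34640769-34640828, plus strand) holds separate ISRE matches, and those of Rsad2 (chr12:26456538-26456597, minus strand) and Oas3 (chr5:120777700-120777759, minus strand) hold a single match. Gbp2 (chr3:142620579-142620638, plus strand) and Gbp3 (chr3:142559977-142560036, plus strand) lie on the same chromosome and also hold ISRE matches, which overlap each other in Gbp3. Irgm1 (chr11:48871421-48871480, minus strand) has overlapping ISRE matches, and Igtp (chr11:58199491-58199550, plus strand) has a GAS match followed by an ISRE match. The Irf1 window (chr11:53769898-53769957, plus strand) holds a GAS match, and no ISRE match was found in the 250 bases searched. A match is a run of letters and was not tested for binding.

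The tissue label was checked against lung epithelial markers. The mean log2 level of 6 such markers (among them Sftpc and Scgb1a1, a surfactant protein and a club cell secretory protein) was 13.02 to 13.44 in every mouse, against array medians of 8.614 to 8.731. Some mice stood apart in the genes of interest, and their labels were kept. Replicate 4 of the saline mice of day 21 had the highest level of its group for all 22 antiviral genes (16.5% of all genes were highest in that mouse), with a mean antiviral level of 10.49 against 9.17 to 9.51 in the other 7. Replicate 8 of the bleomycin mice of day 1 was lowest for 21 of 22 antiviral genes (19.5% of all genes), and its mean of 9.25 lay below that of every saline mouse. At day 2 replicate 8 of the bleomycin mice was lowest for 19 of 22 antiviral genes (15.9% of all genes). Results that rest on these mice are also given without them.

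Antiviral genes had risen by day 1, when 20 of 22 passed the test, and 6 of 9 interferon-gamma genes had risen with them. The largest changes were those of Rsad2, with a 3.52-fold mean increase, and Mx1, with 2.64-fold. Within the interferon-gamma list all 5 GTPases (Gbp2, Gbp3, Igtp, Irgm1 and Iigp1) and Irf1 rose, and none of the 3 antigen processing genes (Tap1, Psmb8 and Psmb9) passed. Here and below, rose and fell stand for an adjusted p under 0.05 in limma, a linear model fitted to all genes together. Fewer cells of a type and less RNA per cell cannot be told apart in such values.

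Of all genes 14.7% had risen at day 1 and 16.7% had fallen, while 26 of the 31 members had risen and 0 had fallen. The median log2 change was 0.59 for antiviral genes, 0.3 for interferon-gamma genes and -0.01 for all genes. The rise was over 2-fold for 6 antiviral genes and no interferon-gamma gene, against 0.376% of all genes. Oas2 and Xaf1 were the antiviral genes that did not pass, with log2 changes of 0.59 (adjusted p = 0.0515, limma) and 0.22 (adjusted p = 0.162, limma). The other, brighter probeset of Xaf1 rose by 0.48 (adjusted p = 0.000131 over all probesets, limma), and the other, slightly dimmer probeset of Gbp2 changed by 0.24 and did not pass (adjusted p = 0.067 over all probesets, limma).

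Rsad2 encodes viperin, an enzyme that makes a chain-terminating nucleotide active against viral polymerases. Its log2 level at day 1 was 8.63, 8.96 and 9.62 in the lowest, median and highest saline mouse and 9.07, 11.2 and 12.04 in the bleomycin mice. All bleomycin mice but 1 exceeded the highest saline mouse. The log2 change was 1.81 with a standard error of 0.3 (adjusted p = 2.41e-06, limma). Mx1, a dynamin-like GTPase whose allele in most laboratory strains lacks coding exons, ranged from 8.97 over 9.35 to 9.6 with saline and from 8.84 over 10.94 to 11.84 with bleomycin. Here 7 of 8 bleomycin mice were above every saline mouse and 1 was below all of them. The log2 change of Mx1 was 1.4 with a standard error of 0.28 (adjusted p = 7.56e-05, limma).

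Iigp1 and Igtp had the largest changes of the interferon-gamma genes at day 1. Both are immunity-related GTPases, a family that acts against intracellular pathogens. Iigp1 was at 9.92, 10.01 and 10.35 in the lowest, median and highest saline mouse and at 9.88, 10.87 and 11.28 with bleomycin. Apart from 1 mouse below the saline range, all bleomycin mice exceeded every saline mouse (log2 change 0.72, standard error 0.19, adjusted p = 0.00272, limma). Igtp was at 11.25, 11.38 and 11.69 with saline and at 11.7, 11.94 and 12.22 with bleomycin, and its groups did not overlap (log2 change 0.53, standard error 0.13, adjusted p = 0.000942, limma). In all, 3 members (Irf9, Stat2 and Igtp) had every bleomycin mouse above every saline mouse at day 1, against 1.36% of all genes. Without replicate 8 of the bleomycin mice 28 of 31 members rose.

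**Figure D1:**
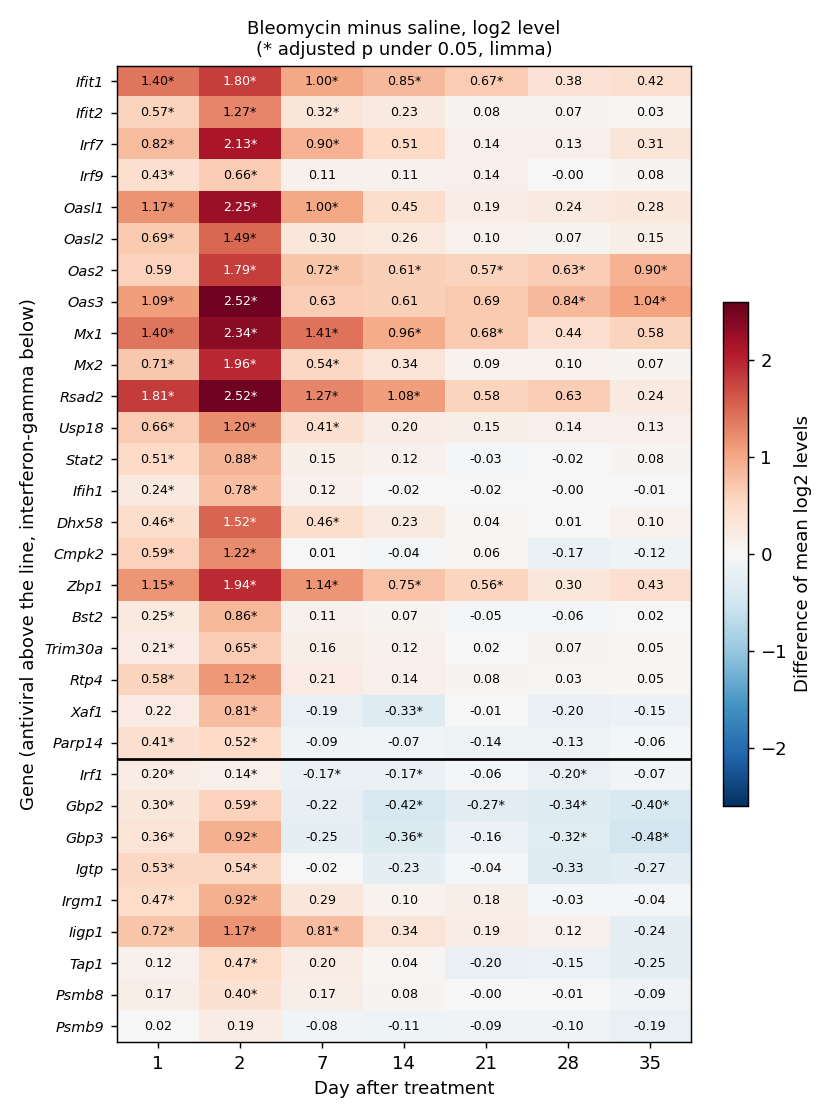
Difference of mean log2 level between bleomycin and saline mice (colour and number) for the 31 measured genes (rows) on each day after treatment (columns), with an asterisk where the adjusted p of limma was under 0.05. Day 2 is the most strongly coloured column, with 30 of 31 genes marked, and Gbp2 and Gbp3 turn from positive to negative after day 2.

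The response was highest at day 2. All 22 antiviral genes and 8 of 9 interferon-gamma genes had risen, and 30 of the 31 members had their highest log2 change of the 7 days at day 2, with Irf1 (day 1) as the exception. Rsad2 and Oas3 led with a 5.74-fold mean increase each, followed by Mx1 with 5.05-fold. The GTPases of the interferon-gamma list rose by 0.54 to 1.17 on the log2 scale, and Tap1 and Psmb8, a peptide transporter subunit and an immunoproteasome subunit, rose by 0.47 and 0.4. The other probeset of Tap1, which is dimmer, changed by 0.06 and did not pass (adjusted p = 0.425 over all probesets, limma). Psmb9, another immunoproteasome subunit, was the member that did not pass (0.19, adjusted p = 0.0812, limma).

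At day 2 14.2% of all genes had risen and 13.1% had fallen, against 30 and 0 of the 31 members. The median log2 change was 1.38 for antiviral genes, 0.54 for interferon-gamma genes and -0.01 for all genes. A rise of over 2-fold was reached by 15 antiviral genes and 1 interferon-gamma gene, against 0.949% of all genes. Every bleomycin mouse lay above every saline mouse for 6 members, all antiviral (Ifit1, Oasl2, Oas2, Oas3, Ifih1 and Trim30a), against 1.41% of all genes. The members named for their function in the interferon pathway itself rose as well: Irf7, which amplifies type I interferon transcription, by 2.13, Stat2 by 0.88, Irf9 by 0.66, the RNA sensor genes Dhx58 and Ifih1 by 1.52 and 0.78, and Usp18, which restrains the type I receptor, by 1.2.

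Oas3 encodes an oligoadenylate synthetase, which activates RNase L on contact with double-stranded RNA. It was at 7.19, 7.76 and 7.93 in the lowest, median and highest saline mouse of day 2 and at 8.82, 10.53 and 11.12 in the bleomycin mice. The groups did not overlap (log2 change 2.52, standard error 0.3, adjusted p = 1.34e-10, limma). Rsad2 was at 8.78, 9.55 and 9.9 with saline and at 9.87, 12.44 and 13.03 with bleomycin, and only its lowest bleomycin mouse lay within the saline range (log2 change 2.52, standard error 0.3, adjusted p = 1.36e-10, limma).

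Iigp1 was at 10.01, 10.34 and 10.87 with saline and at 10.39, 11.86 and 12.12 with bleomycin at day 2, with 6 of 8 bleomycin mice above every saline mouse (log2 change 1.17, standard error 0.19, adjusted p = 1.27e-06, limma). Irgm1, which regulates the other immunity-related GTPases, was at 10.07, 10.24 and 10.54 with saline and at 10.38, 11.47 and 11.68 with bleomycin. Again 6 of 8 bleomycin mice were above the saline range (log2 change 0.92, standard error 0.13, adjusted p = 1.06e-08, limma). The mean antiviral level separated the bleomycin mice of day 2 as well, and was 11.13 to 11.67 in 6 bleomycin mice, and 9.84 and 9.71 in replicates 5 and 8, where it still exceeded the highest saline mouse at 9.68. With these mice left out, a choice made after seeing the data, all 31 members rose, and the log2 change of Rsad2 was 3.16.

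**Figure D2:**
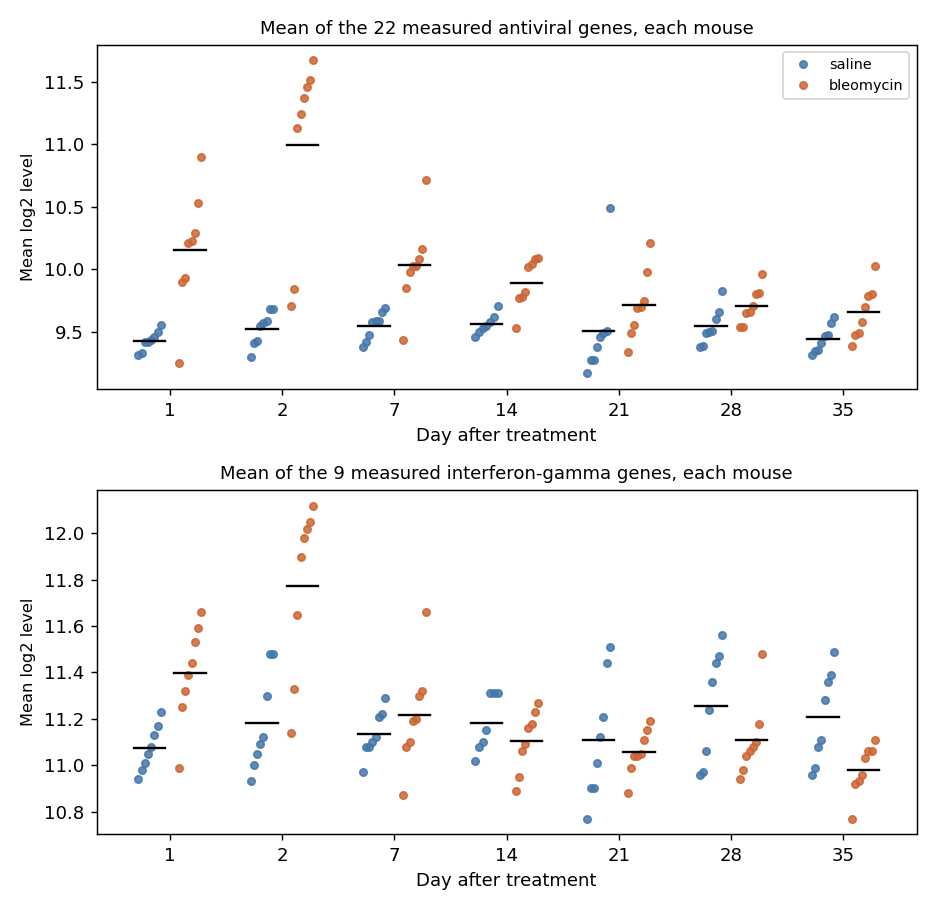
Mean log2 level of the 22 antiviral genes (top) and the 9 interferon-gamma genes (bottom) in each mouse (points, blue for saline and orange for bleomycin) by day after treatment, with black bars at the group means. At day 2 the antiviral means of the bleomycin mice run from 9.71 to 11.67 and lie above every saline mouse, and at day 21 a single saline mouse stands at 10.49.

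By day 7 the antiviral response had narrowed to 11 of 22 genes, and of the interferon-gamma genes Iigp1 had risen and Irf1 had fallen. The 12 members that had risen compare with 25.7% of all genes, and the 1 that had fallen with 21.9%. The median log2 change was 0.36 for antiviral genes, -0.02 for interferon-gamma genes and -0.01 for all genes. The rise was over 2-fold for 4 antiviral genes (2.85% of all genes), led by Mx1 at 2.65-fold and Rsad2 at 2.41-fold, and the nucleic acid sensor Zbp1, which triggers necroptosis, rose by 1.14 on the log2 scale. Zbp1 and Iigp1 had every bleomycin mouse above every saline mouse, against 10.3% of all genes.

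Mx1 at day 7 was at 8.87, 9.28 and 9.9 in the lowest, median and highest saline mouse and at 9.79, 10.79 and 11.84 with bleomycin (log2 change 1.41, standard error 0.28, adjusted p = 1.8e-05, limma). Rsad2 was at 8.72, 9.64 and 10.07 with saline and at 9.75, 10.86 and 11.92 with bleomycin (log2 change 1.27, standard error 0.3, adjusted p = 0.000248, limma). For both genes 7 of 8 bleomycin mice exceeded the highest saline mouse. Iigp1 was at 9.97, 10.32 and 10.64 with saline and at 10.79, 11.08 and 11.56 with bleomycin (log2 change 0.81, standard error 0.19, adjusted p = 0.000295, limma). Irf1, a transcription factor that acts on GTPase and antigen processing genes, was at 11.59, 11.8 and 11.94 with saline and at 11.47, 11.59 and 11.86 with bleomycin, where 4 mice lay below every saline mouse (log2 change -0.17, standard error 0.05, adjusted p = 0.00434, limma). Replicate 7 of the bleomycin mice was highest for 21 of 22 antiviral genes (11.5% of all genes) and 8 of 9 interferon-gamma genes. Without it 9 members had risen and 3, all of the interferon-gamma list, had fallen. With the saline mice of all days as the control 20 had risen and 3 had fallen.

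At day 14 members of the lists passed in different directions. The antiviral genes Ifit1, Oas2, Mx1, Rsad2 and Zbp1 had risen, and the interferon-gamma genes Gbp2, Gbp3 and Irf1 had fallen, as had the antiviral gene Xaf1. The 5 of 31 members that had risen compare with 21.9% of all genes and the 4 that had fallen with 19.7%. Both counts lay below the shares of all genes. The median log2 change was 0.23 for antiviral genes, -0.11 for interferon-gamma genes and -0.01 for all genes. With the other probeset of Zbp1 the log2 change was 0.34 and did not pass (adjusted p = 0.313 over all probesets, limma). With 1 fit per day 11 members had risen, and with all saline mice as control 13.

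Rsad2 at day 14 was at 8.74, 9.34 and 10.68 in the lowest, median and highest saline mouse and at 9.8, 10.66 and 10.96 with bleomycin, so that 4 of 8 bleomycin mice exceeded every saline mouse (log2 change 1.08, standard error 0.31, adjusted p = 0.00333, limma). Mx1 was at 9.19, 9.34 and 9.53 with saline and at 9.67, 10.25 and 10.82 with bleomycin, without overlap (log2 change 0.96, standard error 0.29, adjusted p = 0.0055, limma). Ifit1, which binds viral RNA that lacks cap methylation, was the other member with all bleomycin mice above the saline mice, against 10% of all genes.

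Gbp2 and Gbp3 encode guanylate-binding proteins, which coat the vacuoles of intracellular pathogens. Gbp2 at day 14 was at 11.14, 11.26 and 11.4 with saline and at 10.74, 10.83 and 11.04 with bleomycin. Every bleomycin mouse lay below every saline mouse, as it did for Gbp3 and Irf1 (6.66% of all genes), and the log2 change of Gbp2 was -0.42 with a standard error of 0.1 (adjusted p = 0.000464, limma). Xaf1, known as a pro-apoptotic protein, was at 6.66, 6.93 and 7.07 with saline and at 6.27, 6.59 and 6.96 with bleomycin (log2 change -0.33, standard error 0.12, adjusted p = 0.0247, limma). The fall of Xaf1 was not found with its other, brighter probeset, where the log2 change was 0.09 (adjusted p = 0.506, limma), nor without replicate 5 of the saline mice (adjusted p = 0.0541, limma).

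**Figure D3:**
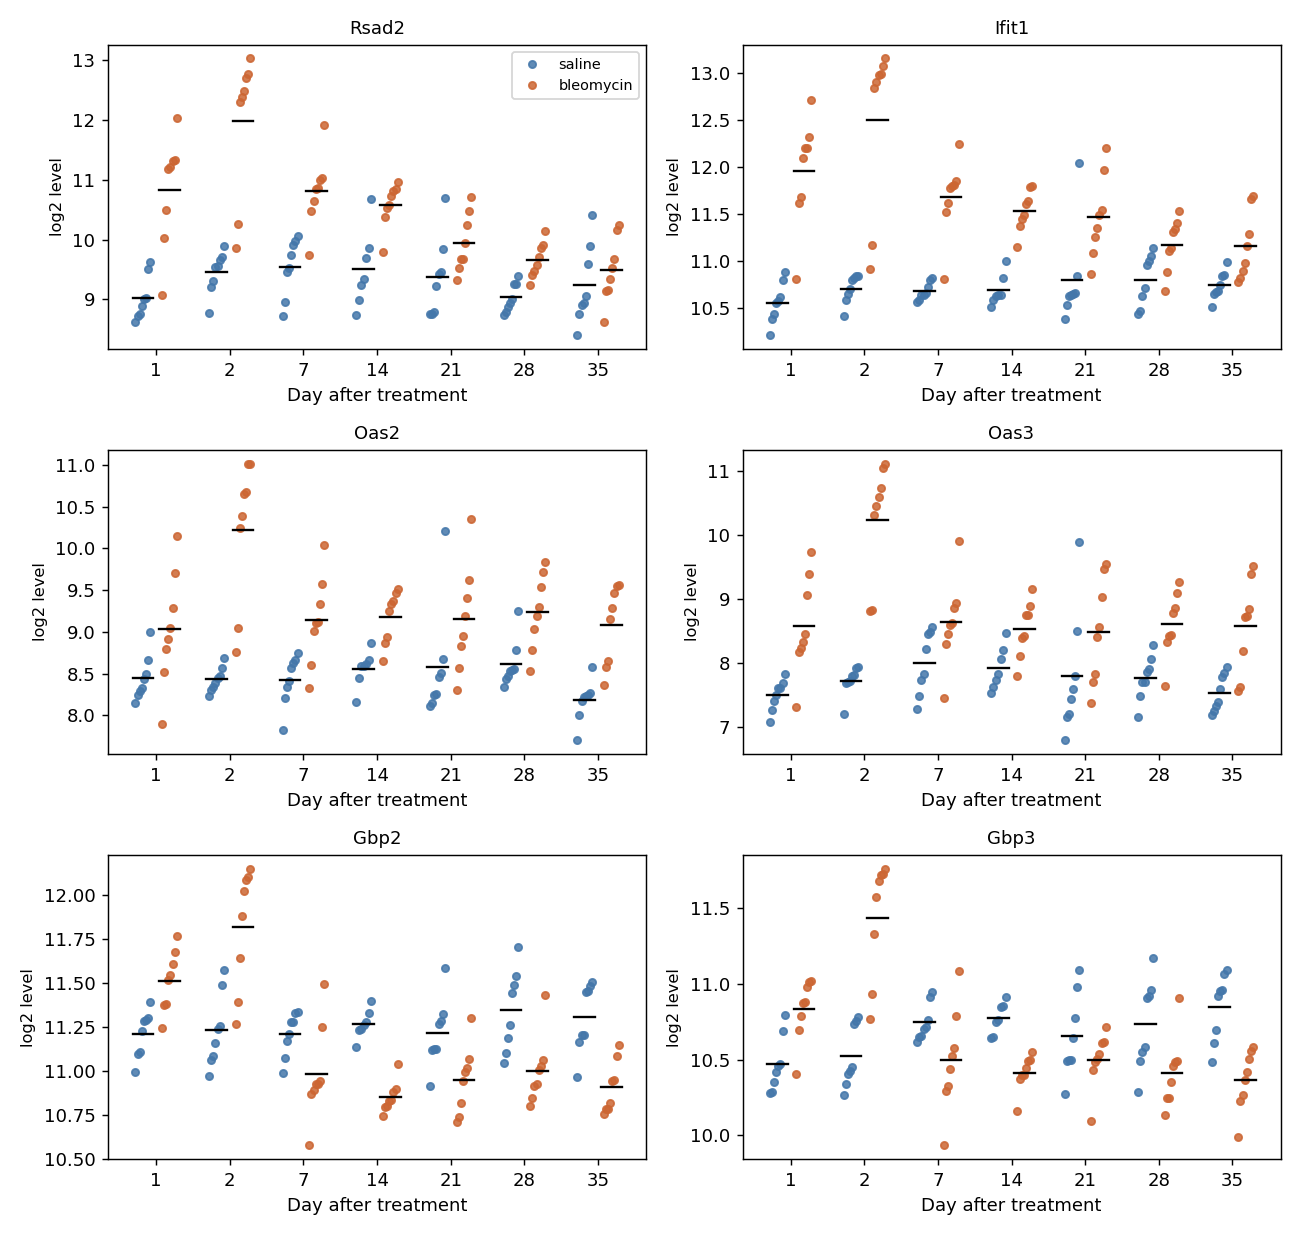
Log2 level of Rsad2, Ifit1, Oas2, Oas3, Gbp2 and Gbp3 in each mouse (points, blue for saline and orange for bleomycin) by day after treatment, with black bars at the group means. All 6 genes are highest in bleomycin mice at day 2, and from day 14 on the bar of the bleomycin mice lies above that of the saline mice for the first 4 genes and below it for Gbp2 and Gbp3.

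In the late period, days 21 to 35, few members passed the test, and the counts over the 31 members lay below the shares of all genes. At day 21 Ifit1, Mx1, Zbp1 and Oas2 had risen and Gbp2 had fallen, against 20.5% and 18.9% of all genes. At day 28 Oas3 and Oas2 had risen and Gbp2, Gbp3 and Irf1 had fallen, against 11.5% and 11.8% of all genes. At day 35 Oas3 and Oas2 had risen and Gbp3 and Gbp2 had fallen, against 16.9% and 12.5% of all genes. The median log2 change was 0.09, 0.07 and 0.09 for antiviral genes, and -0.06, -0.15 and -0.24 for interferon-gamma genes, against 0, 0 and 0.02 for all genes. At day 35 all 9 interferon-gamma genes had a log2 change below 0, of which 2 passed.

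The largest rises at day 21 were those of Mx1 and Ifit1. Mx1 was at 8.06, 8.91 and 10.65 in the lowest, median and highest saline mouse and at 8.58, 9.78 and 10.43 with bleomycin (log2 change 0.68, standard error 0.28, adjusted p = 0.0488, limma). Ifit1 was at 10.39, 10.64 and 12.04 with saline and at 10.86, 11.42 and 12.2 with bleomycin (log2 change 0.67, standard error 0.2, adjusted p = 0.00411, limma). In both genes replicate 4 of the saline mice was the highest control, above all bleomycin mice for Mx1 and above 7 of 8 for Ifit1. Without that mouse 7 antiviral genes had risen at day 21, and without replicate 7 of the bleomycin mice 1 had, with adjusted p values of 0.122 for Mx1 and 0.195 for Oas2 (limma). Gbp2 at day 21 was at 10.92, 11.2 and 11.59 with saline and at 10.71, 10.97 and 11.3 with bleomycin, with overlap (log2 change -0.27, standard error 0.1, adjusted p = 0.0217, limma). At day 21 the other probesets of Gbp2 and Zbp1 did not pass, with log2 changes of -0.24 (adjusted p = 0.0609 over all probesets, limma) and 0.06 (adjusted p = 0.886 over all probesets, limma).

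Oas2, an oligoadenylate synthetase like Oas3, rose on 6 of 7 days, more than any other member. At day 28 it was at 8.34, 8.54 and 9.25 with saline and at 8.53, 9.25 and 9.83 with bleomycin (log2 change 0.63, standard error 0.24, adjusted p = 0.0462, limma). Oas3 was at 7.16, 7.78 and 8.29 with saline and at 7.65, 8.61 and 9.27 with bleomycin (log2 change 0.84, standard error 0.3, adjusted p = 0.0342, limma). The groups overlapped for both, and without replicate 3 of the bleomycin mice neither passed (adjusted p = 0.105 for Oas2 and 0.0674 for Oas3, limma), which left 0 members risen at day 28. Gbp2 at day 28 was at 11.05, 11.35 and 11.71 with saline and at 10.8, 10.97 and 11.43 with bleomycin, with 6 of 8 bleomycin mice below every saline mouse (log2 change -0.34, standard error 0.1, adjusted p = 0.00635, limma). The fall of Gbp3 at day 28 was lost without replicate 5 of the saline mice (adjusted p = 0.0718, limma).

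At day 35 Oas3 was at 7.18, 7.49 and 7.94 with saline and at 7.56, 8.73 and 9.53 with bleomycin, and 6 of 8 bleomycin mice exceeded every saline mouse (log2 change 1.04, standard error 0.3, adjusted p = 0.00549, limma). Oas2 was at 7.7, 8.23 and 8.58 with saline and at 8.36, 9.23 and 9.56 with bleomycin, with 7 of 8 bleomycin mice above the saline range (log2 change 0.9, standard error 0.24, adjusted p = 0.00241, limma). Oas3 was over 2-fold higher, against 0.649% of all genes. Gbp3 was at 10.48, 10.94 and 11.09 with saline and at 9.99, 10.39 and 10.58 with bleomycin, where 5 of 8 mice lay below every saline mouse (log2 change -0.48, standard error 0.12, adjusted p = 0.000774, limma).

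By the days on which they rose, 14 members passed at days 1 and 2 alone (Bst2, Cmpk2, Ifih1, Irf9, Oasl2, Parp14, Rtp4, Stat2 and Trim30a of the antiviral list and Gbp2, Gbp3, Igtp, Irf1 and Irgm1 of the interferon-gamma list). Another 7 passed at days 1, 2 and 7 (Dhx58, Ifit2, Irf7, Mx2, Oasl1, Usp18 and Iigp1), and Psmb8, Tap1 and Xaf1 passed at day 2 alone. Rsad2 rose up to day 14, and Ifit1, Mx1 and Zbp1 rose up to day 21. With the other probesets given above Xaf1 also rose at day 1, Gbp2 rose at day 2 alone, Tap1 rose on no day and Zbp1 rose up to day 7. The brightest probeset of Rsad2 also rose at day 21 (0.61, adjusted p = 0.0495 over all probesets, limma). The other, dimmer probeset of Dhx58 also rose at day 14 (0.41, adjusted p = 0.0434 over all probesets, limma). Oas3 rose at days 1, 2, 28 and 35. Its changes of 0.63, 0.61 and 0.69 at days 7, 14 and 21 did not pass (adjusted p = 0.0764, 0.108 and 0.0589, limma). Nor did the difference between its responses of the late days and of days 7 and 14 (0.23, adjusted p = 0.586, limma).

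The difference between the periods was tested directly. The mean response of days 7 and 14 was lower than that of days 1 and 2 for 25 of the 31 members (20 antiviral and 5 interferon-gamma) and higher for 0, against 15.8% and 20.4% of all genes. The drop was 1.18 on the log2 scale for Oas3 (adjusted p = 0.00116, limma), 0.99 for Rsad2 (adjusted p = 0.00666, limma) and 0.95 for Gbp3 (adjusted p = 1.92e-10, limma). Mx1, Oas2, Iigp1, Tap1, Psmb8 and Psmb9 were the members that did not pass. Between days 7 and 14 and the 3 late days the response was lower in the late days for 2 members, Iigp1 by 0.55 (adjusted p = 0.015, limma) and Tap1 by 0.32 (adjusted p = 0.0176, limma), against 14.9% of all genes. This later count was 2 to 7 when chosen single mice were left out. Among bleomycin mice it was 7 without replicate 8 of day 2, and 5 without replicate 8 of day 14 or replicate 7 of day 21. Without replicate 3 or 4 of day 35 it was 4.

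Each day had its own saline control, and these were compared with each other. The F test over the 7 saline groups passed for 1 member, Gbp3 (adjusted p = 0.0313, limma), whose group means ran from 10.47 to 10.85, while it passed for 54.1% of all genes. Without replicate 4 of the saline mice of day 21 it passed for 3 members.

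Most of the interferon genes looked for were not measured. None of 5 measured interferon genes (Ifna1, Ifna5, Ifna9, Ifnb1 and Ifng) passed at day 1, when the largest log2 change was that of Ifna1 at 0.21. At day 2 Ifnb1 had risen by 0.21 (adjusted p = 0.04, limma) and Ifng by 0.41 (adjusted p = 0.0362, limma). These were 2 of 5 genes, against 14.2% of all genes that rose on that day. Ifng was at 6.01, 6.48 and 7.06 in the lowest, median and highest saline mouse of day 2 and at 6.52, 6.87 and 7.52 with bleomycin, with overlap. Ifng had fallen at day 28 by 0.52 (adjusted p = 0.00952, limma) and at day 35 by 0.48 (adjusted p = 0.0135, limma). It was 1 of 5 genes on each of these days, against 11.8% and 12.5% of all genes that fell. None of the 5 genes passed at days 7, 14 or 21.

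Of 6 receptor genes 1 passed at day 1 (Ifngr2, a chain of the interferon-gamma receptor, by 0.16) and 1 at day 2 (Ifngr1 by 0.16), a share close to the 14.7% and 14.2% of all genes that rose on these days. Of 7 signalling genes 4 had risen on each of days 1 and 2 and 1 had fallen, while 16.7% and 13.1% of all genes fell. Socs3, a feedback inhibitor of several cytokine receptors, rose on all 7 days, by 0.64 to 1.37, and Socs1, the inhibitor best known for the interferon receptors, rose on days 1, 2 and 7 by 0.34, 0.26 and 0.21. Of 14 nucleic acid sensing genes 2, 6, 7, 4, 5, 2 and 1 had risen on the 7 days in order. Of all genes 14.7%, 14.2%, 25.7%, 21.9%, 20.5%, 11.5% and 16.9% rose. None of the 14 had fallen at days 1 and 2, and 3, 1, 3, 2 and 2 had fallen on the later days. These falls compare with 21.9%, 19.7%, 18.9%, 11.8% and 12.5% of all genes. Sting1, the adaptor of cytosolic DNA sensing, rose on all 7 days with its largest change at day 7 (1.07, standard error 0.14, adjusted p = 6.51e-10, limma), whereas Ddx58, which encodes the RNA sensor RIG-I, rose at day 2 by 0.86 and on no other day.

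Relatives of the interferon-gamma members that were not on the list were followed too. Gbp6, Gbp7 and Irgm2, all 3 measured GTPases of that group, had risen at days 1 and 2, against 14.7% and 14.2% of all genes. Of these 3, Gbp7 had fallen at days 7, 14, 28 and 35, by 0.33 to 0.43, against 21.9%, 19.7%, 11.8% and 12.5% of all genes. Of 6 other genes of class I antigen processing 3 had risen at day 1 (Tapbp, Psmb10 and B2m) and all 6 at day 2, by 0.14 to 0.39. The same 14.7% and 14.2% of all genes apply. Later 1 of the 6 had fallen at each of days 21 and 28, against 18.9% and 11.8% of all genes. At day 35, 1 had risen, against 16.9%.

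Markers of other cell types changed too, on some of the same days and on others. At day 2 3 of 5 monocyte markers rose (Ms4a4c by 1.29, Ccr2 by 1.28 and F13a1 by 0.82), and their mean level ran from 9.22 to 9.74 in saline mice and from 9.61 to 10.6 in bleomycin mice. None of the 5 rose at day 1, when 26 of 31 members did, and 1 fell. At day 7 4 rose, and at day 14 3 rose and 2 fell. Of 6 macrophage markers 1, 2, 4, 3, 5, 3 and 3 rose on the 7 days in order, and of 3 neutrophil markers none rose at days 1 and 2 and 3 fell at day 7 and 2 at day 14. Of 7 natural killer (NK) cell markers, cells that make interferon-gamma, 2 had risen at day 2, and 7, 6, 6, 2 and 7 had fallen at days 7, 14, 21, 28 and 35. Their mean level at day 35 ran from 8.83 to 9.29 in saline mice and from 7.6 to 8.66 in bleomycin mice. Over all genes 14.7%, 14.2%, 25.7%, 21.9%, 20.5%, 11.5% and 16.9% rose on the 7 days in order. The shares that fell were 21.9%, 19.7%, 18.9%, 11.8% and 12.5% at days 7, 14, 21, 28 and 35. Of 4 B cell markers 3, 3, 4, 2 and 4 had fallen on the same days, and of 6 endothelial markers 6, 5, 6, 5 and 4. Of 6 T cell markers 1 had risen at day 14, and 1 and 2 had fallen at days 21 and 35. None of 4 markers of plasmacytoid dendritic cells, a source of type I interferon, rose on any day, and their mean level at day 2 ran from 6.97 to 7.67 in saline mice and from 6.83 to 7.58 in bleomycin mice. Their part in the changes of the members was not tested.

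**Figure D4:**
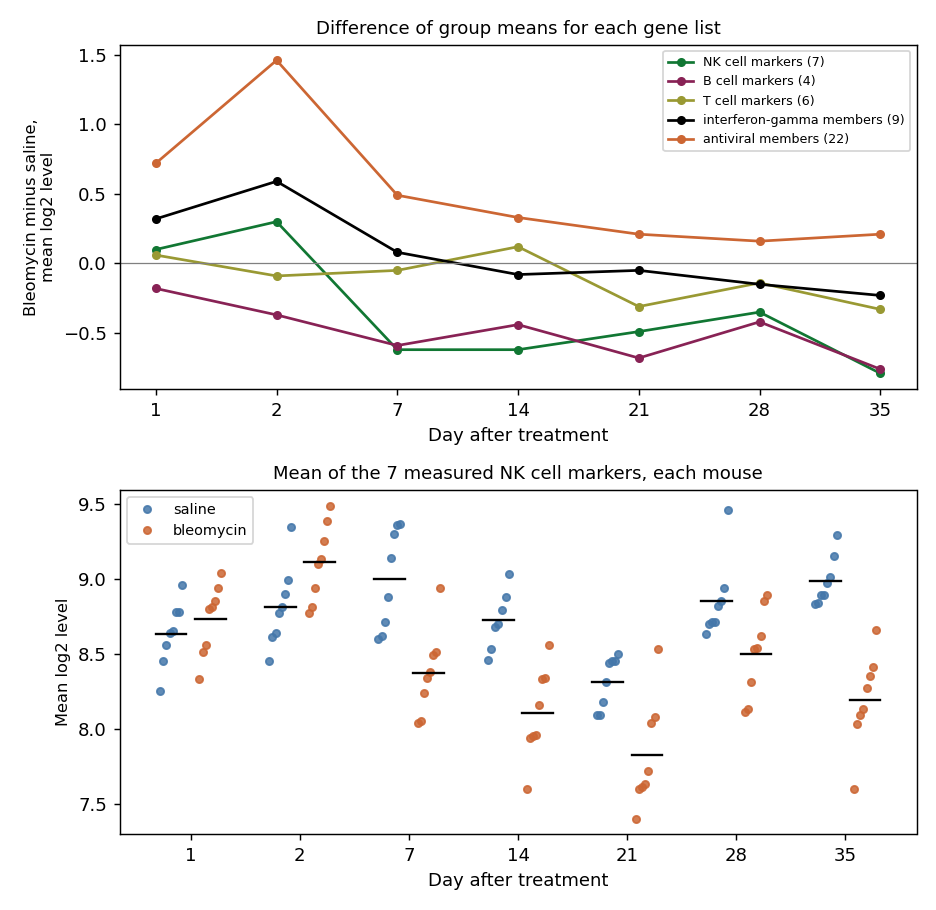
Top, difference of mean log2 level between bleomycin and saline mice for 5 gene lists (lines) by day after treatment; bottom, mean log2 level of the 7 NK cell markers in each mouse (points, blue for saline and orange for bleomycin) with black bars at the group means. The NK marker difference is 0.3 at day 2 and -0.62 at day 7, and the interferon-gamma line runs from 0.59 at day 2 to -0.23 at day 35.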

How the data were processed

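Whole-lung RNA of 111 mice was measured on Affymetrix arrays. The authors amplified the RNA, mapped the probes to the mouse genome (build not given in the sources used here), dropped probes of non-unique or outdated mapping and normalized by RMA, and deposited 1 log2 value per probeset and array, from 2.746 to 14.69. An array has no read depth, and the number of arrays limits the precision.

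Of 32688 probesets 27871 stood for 1 gene, 314 for several and 4503 for none. Each of the 15707 genes was represented by its probeset of highest variance over all arrays. limma 3.58.1 in R 4.3.3 (lmFit, eBayes) fitted 14 group means, with contrasts of bleomycin minus saline within a day and between periods, and an F test over saline groups. P values were adjusted over all genes (Benjamini-Hochberg). Standard errors are those of limma, which estimates 1 spread per gene over all 14 groups, not that of the day itself. In bleomycin mice Mx1 had a standard deviation of 1.26 at day 2 and 0.43 at day 14. The standard errors of its change were 0.28 and 0.29. The members and lists were chosen with earlier results of these data known. Lists are described by counts and medians, with no test. Mouse levels are given, in each list, for the members with the 2 largest rises and the largest fall past the test on each day, and log2 changes for others that passed.

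On arrays simulated for 8 bleomycin against 7 saline mice of day 14 (15707 genes), 100 of 100 genes changed 3-fold and 93 of 100 changed 1.5-fold passed. So did 13 unchanged genes. The changed genes were drawn from all genes, so these shares do not hold for members of wider spread. Oas3 was 1.53-fold higher at day 14 and did not pass (adjusted p = 0.108, limma). Alternatives were another probeset or the mean of probesets, the 30% dimmest genes left out, repeated quantile normalization, array medians subtracted, no moderation, 1 fit per day, all saline mice as control, array weights, the replicate number as a block, and left-out mice, which, except for replicate 3 of the bleomycin mice of day 35, were chosen after seeing the data.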

Additional observations from a re-analysis of the deposited data

Results flagged for a closer look

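In a few groups a single mouse stood far from the others. Of 196 combinations of a group with a list mean or a named gene, 13 had a highest or lowest mouse whose gap to the next exceeded the critical value of Dixon's test, and chance alone marks about 1 group in 20. Replicate 4 of the saline mice of day 21 accounted for 4 of them, with 10.49 for the mean antiviral level (next mouse 9.51), 10.65 for Mx1 (9.21), 12.04 for Ifit1 (10.84) and 10.21 for Oas2 (8.67), all on the log2 scale. Replicate 1 of the bleomycin mice of day 28 was highest for the mean interferon-gamma level at 11.48 (next mouse 11.18), for Gbp2 at 11.43 (11.06) and for Gbp3 at 10.91 (10.49). The other 6 were low mice: Oas3 at 7.19 and Xaf1 at 6.35 in saline mice of day 2 (replicates 8 and 2), Iigp1 at 9.88 in replicate 8 of the bleomycin mice of day 1, Irf1 at 11.59 in replicate 3 of the saline mice of day 7, and Gbp3 at 10.16 and 10.09 in bleomycin mice of days 14 and 21 (replicates 8 and 5).

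For 10 of the 12 genes with mouse levels the response differed between periods in the direct test, and for Mx1 and Oas2 it did not pass. These genes were picked for the largest changes on single days, which favours a difference between periods. Of all genes 15.8% were lower and 20.4% higher in days 7 and 14 than in days 1 and 2. In the late days 14.9% were lower and 11.9% higher than in days 7 and 14. From days 1 and 2 to days 7 and 14 the log2 change differed by -1.18 for Oas3, -0.99 for Rsad2, -0.95 for Gbp3, -0.77 for Xaf1, -0.76 for Gbp2, -0.67 for Ifit1, -0.66 for Igtp, -0.5 for Irgm1 and -0.34 for Irf1. From days 7 and 14 to the late days it differed by -0.55 for Iigp1.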

How the results depend on the processing

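The counts at days 1 and 2 were stable: over all alternatives 23 to 28 members had risen at day 1 and 29 to 31 at day 2, with 0 fallen, and 24 to 30 were lower in days 7 and 14 than in days 1 and 2. Of 285 recomputed counts 250 stayed within 1.5 times the reported one. With all saline mice as control 20, 13, 7 and 5 members had risen at days 7, 14, 21 and 28, and 3, 3 and 6 had fallen at days 7, 21 and 35; 14 were lower and 1 higher in the late days than in days 7 and 14. With 1 fit per day 11, 1, 5 and 5 had risen at days 14, 21, 28 and 35, and 4 had fallen at day 35. With array weights 7, 4 and 4 had risen at days 21, 28 and 35, 3 had fallen at day 7, 9 were lower in the late days, and 5 differed among saline groups. Without moderation 1 had risen at day 21. At day 7, 2 had fallen without the 30% dimmest genes or with array medians subtracted.

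When single mice were left out, the risen members of day 7 numbered 9 to 12, those of day 14 5 to 6, those of day 21 1 to 7 and those of day 28 0 to 2, and 2 had risen at day 35 in each case. The fallen count at day 7 ranged over 1 to 3, the count lower in the late days over 2 to 7, and the count differing among saline groups over 1 to 3.

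The main fit did not pair mice by replicate number. Deviations of same-numbered mice correlated above 0.1 in 23 of 55 pairs. Their mean correlation exceeded that of other numbers on all days but day 28, and was highest at day 35 (0.145 against -0.019). With the replicate number as a block 2 members had fallen at day 7, 2 interferon-gamma genes had risen and 2 had fallen that day, and 5 members were lower in the late days. The other counts stayed within 1.5 times.

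Of 1611 recomputed values of named genes 1496 kept their side of the threshold, 97 newly passed and 17 no longer passed. Only 1 change that passed was reversed in sign, the day 14 change of Xaf1 at 0.09 with the brightest probeset. Signs that differed where neither value passed were counted among the 1496. An example is Xaf1 at day 7, with -0.19 and, with its brighter probeset, 0.07. Of the members, 10 had other probesets; when each call was set beside another probeset of its gene, 27 of 33 passed the same way and 0 the opposite way, and the others were 2 calls each of Gbp2 and Zbp1 and 1 each of Tap1 and Xaf1. Precision is limited by the number of mice in a group. The cause of these differences was not tested.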
